A study of Mus musculus and Ochotona curzoniae and Rattus norvegicus with 18 samples.

Results

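The ADAM, ADAMTS and ADAMTSL genes were compared between cultured fibroblasts of the Tibetan pika (Ochotona curzoniae) and of the C57BL/6J mouse. Members were all genes whose symbol is ADAM, ADAMTS or ADAMTSL followed by a number and that occur once in the pika tables and once among the mouse symbols. This gave 38 genes of 14418 joined between the species: 15 ADAM, 19 ADAMTS and 4 ADAMTSL genes. The mouse tables held 51 such symbols, and the 13 without a pika row were not compared. The study, on the hypoxia factor Epas1 and the clock genes, holds 12 RNA-seq libraries, 3 per species, from fibroblasts of pika, mouse, SD rat and White New Zealand rabbit; the rat and rabbit libraries were not analysed here, nor were its ChIP-seq samples. All libraries carry the tissue label epidermis, no genetic change or drug is given for them, and cells were lysed at 90% confluency in serum-containing medium. The labels give no age or passage and do not say that replicate libraries stem from different animals or cultures, so p-values measure only the variation among the sequenced libraries, and this may be technical.

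ADAM proteins are membrane-anchored and carry a disintegrin domain. Those with an intact zinc-binding metalloproteinase site release the outer parts of growth factor precursors, cytokine receptors, Notch and adhesion proteins from the cell surface, and those without it act as adhesion or ligand receptors. ADAMTS proteins are secreted relatives with thrombospondin type 1 repeats that cut proteoglycans, procollagens and other matrix proteins in connective tissue. ADAMTSL proteins keep the repeats but lack the protease domain and are found with fibrillin microfibrils.

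Totals behind the deposited FPKM (reads scaled by gene model length and library total) were 7703576 to 8481030 reads in pika and 3663102 to 5758950 in mouse. Levels below are rescaled FPKM: each library was scaled so that the joined genes sum to 1000000. The joined genes held 37.0% to 38.3% of the FPKM in mouse and about 87.1% in pika, and the choice of scale therefore matters here. Fibroblast markers were present in both species, with 14 of 14 joined markers at 1 FPKM or more in pika and 13 in mouse. Their levels differed, with 2 called higher in pika (DCN and FAP, the latter at 1 FPKM in pika only), 5 lower and 7 not called. The lower ones were COL3A1 (log2 fold change -5.32), PDGFRA (-3.89), COL5A1, COL6A1 and PDGFRB. Over all tested genes 28.7% were called higher and 23.5% lower. Without rescaling 9 of the 14 were called higher and 2 lower. Of 9 joined keratinocyte markers, 6 (KRT5, KRT14, KRT15, KRT10, CDH1 and EPCAM) were listed at 0 in every pika library. In mouse KRT10 was the highest of these 6, at a mean of 0.951 FPKM, and KRT5 and KRT14 averaged 0.0416 and 0.0400. The summed FPKM of the 9 was nonetheless 36.1 to 36.9 in pika and 4.56 to 6.35 in mouse, since ITGA6, an integrin, averaged 35.7 FPKM in pika and was called higher. SFN was called lower, but it reached a mean of 1 FPKM in mouse only (2.04, against 0.487 in pika), so nothing is read from its call. The summed FPKM of the 6 smooth muscle and pericyte markers was 22.5 to 26.3 in pika and 1963 to 1986 in mouse. Most of the mouse sum came from ACTA2, which averaged 8.77 FPKM in pika and 1814 in mouse. Of the 5 tested, 4 (ACTA2, CNN1, MYH11 and RGS5) were called lower in pika, where 23.5% of all tested genes were. Of these 4, 2 (CNN1 and RGS5) reached 1 FPKM in mouse only. CSPG4 did not follow: it was not called (log2 fold change 0.44). It was called higher without rescaling (1.45) and for reads not divided by gene length (2.24). Of the remaining types, the melanocyte marker PMEL was called higher (31.6 against 4.97 rescaled FPKM). The endothelial TEK was called lower (0.702 against 31.4), and so was the chondrocyte SOX9 (1.02 against 19.8). PMEL reached a mean of 1 FPKM in pika only, TEK and SOX9 in mouse only. Other listed markers did not follow: the melanocyte MITF was not called (log2 fold change -0.32), and the chondrocyte ACAN, not tested, was at 1.71 against 0.0988. The summed FPKM in pika and mouse was 31.6 to 36.3 and 10.2 to 11.1 for melanocytes, 0.328 to 0.712 and 6.04 to 7.26 for endothelium, and 1.31 to 1.74 and 3.64 to 4.14 for chondrocytes. The part of these markers in the results below was not tested. In these bulk samples fewer cells expressing a gene and less RNA per cell cannot be told apart, and species, genome and gene annotation cannot be told apart either.

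Most tested members were called lower in pika than in mouse. A gene was tested where its mean deposited FPKM reached 1 in at least 1 species, and it was called at a limma-trend adjusted p under 0.05 with an absolute log2 fold change of at least 1 on the log2(value + 1) scale. Of the 38 members 25 were tested and 20 called, where 52.2% of all 10348 tested genes were called, with 3 called higher in pika (ADAMTS3, ADAM23 and ADAMTS8), 17 called lower and 5 not called (ADAM12, ADAM17, ADAM22, ADAMTS2 and ADAMTS4). Over all tested genes 28.7% were called higher and 23.5% lower, so the members' calls lay on the lower side more often than those of the whole table. The median log2 fold change of the tested members was -1.85, against 0.21 for all tested genes. The limma-trend adjusted p of the 20 calls was at most 0.0002 (ADAMTS8). Without the fold minimum, 23 of the 25 had an adjusted p under 0.05, against 88.6% of all tested genes, and the species did not overlap in 23 of these 25, against 89.0% of all tested genes, so that differences in either direction were also the rule outside the family. The filter was passed in both species by 19 members, only through mouse by 3 (ADAM8, ADAMTS9 and ADAMTS14) and only through pika by 3 (ADAM22, ADAMTS3 and ADAMTS8); for these the counts carry no weight, since a gene high in 1 species alone tends to differ.

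The scale moved these counts. With the deposited FPKM left as it was, 6 members were called higher and 11 lower, where 58.3% of all tested genes were called higher and 10.7% lower, and the median of all genes moved from 0.21 to 1.29. With median-of-ratios scaling 2 members were called higher and 17 lower (21.9% and 24.7% of all tested genes), and the same numbers, 2 and 17, held for reads not divided by gene length (25.9% and 27.7%). Higher calls made up 55.0% of all calls on the shared-gene scale and 84.5% without rescaling. The median of all genes stood above 19 of the 25 members on the shared-gene scale, 20 without rescaling, 19 with median-of-ratios scaling and above 21 when reads were not divided by gene length.

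**Figure D1:**
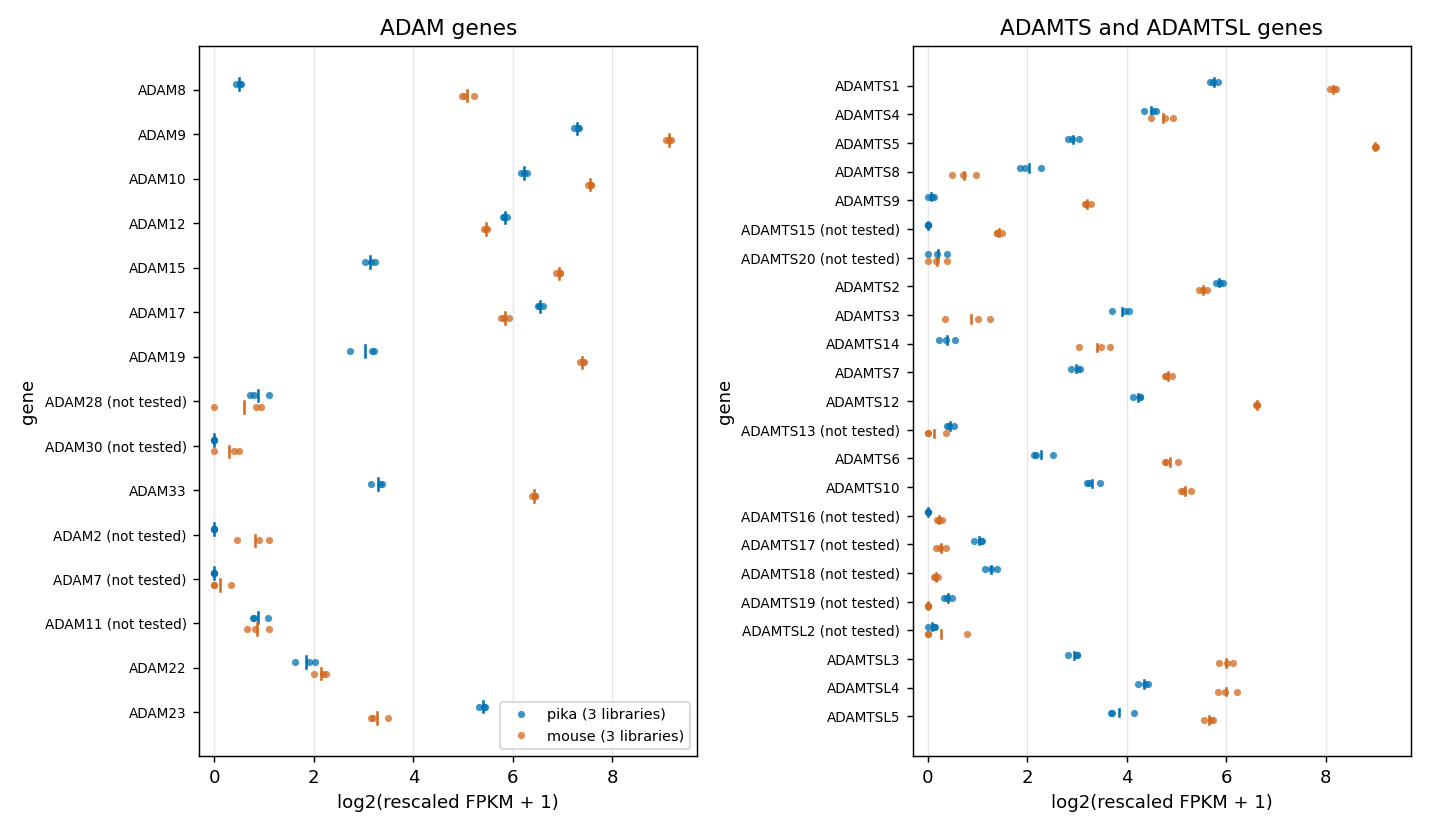
Level of all 38 members in each library, as log2(rescaled FPKM + 1) on the x axis, with pika in blue and mouse in orange; points are the 3 libraries of a species and short bars their mean. ADAMTS5 shows the widest gap, at 6.02 to 7.24 in pika and 506 to 515 in mouse before the log.

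**Figure D2:**
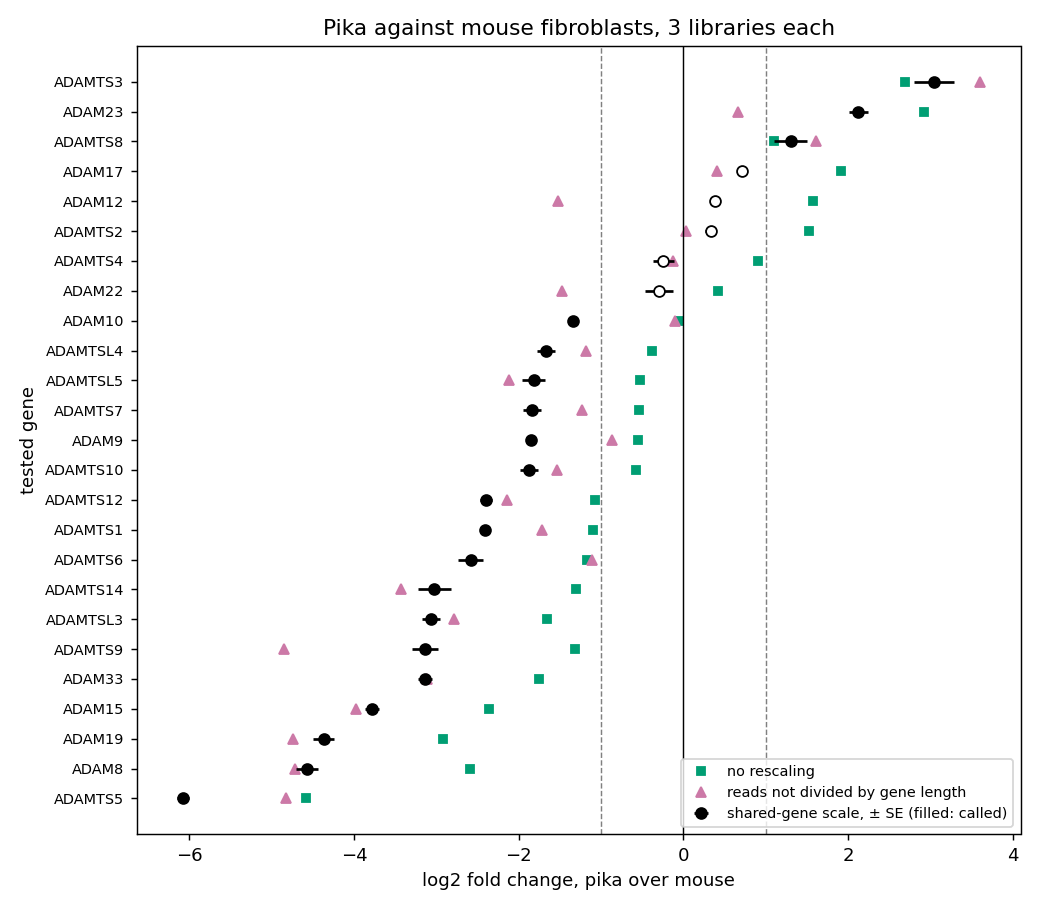
Log2 fold change of pika over mouse for the 25 tested members, ordered by size; circles are the shared-gene scale with the limma standard error (filled where called), squares the deposited FPKM without rescaling, and triangles reads not divided by gene length. Dashed lines mark the fold minimum of 1 in each direction. Every called gene kept its sign under both alternatives, and ADAM10 came closest to 0, at -0.05 and -0.10.

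Because the study concerns EPAS1, whose dimers bind the core letters ACGTG, and the clock, whose activators bind the E-box CACGTG, the mouse promoters of the members were searched for these letters. RefSeq (GRCm38.p6) gave the 250 bases before a start site for 21 of the 38 members. ACGTG was found on either strand in 6 of the 21 (28.6%), against 18.5% of 27025 genes with a promoter, and CACGTG, each of which also counts as a pair of overlapping ACGTG matches, in 3 of 21 (14.3%) against 6.86%. The GC box GGGCGG, searched in the same way, was in 15 of 21 (71.4%) against 35.4%, so a higher share among the members was also found for letters of another kind. Among the 16 tested members with a promoter, 3 held ACGTG (Adam10, Adam19 and Adamts3). The 30 bases around the match are shown with the match in capitals for 1 start site per gene (another start site of Adam19 also held ACGTG letters), since in these tested members the letters and the levels can be set side by side.
Adam10 (chr9:70678906-70678935, plus strand, 64 bases before the start): gtgccgtcgcgtCACGTGgcgagaaaggag
Adam19 (chr11:46054360-46054389, plus strand, 130 bases before the start): ctgacctggtgaCACGTGgggcttgacact
Adamts3 (chr5:89883540-89883569, minus strand, 223 bases before the start): gggccccgggtgACGTGggcgcgcggcggg
The genes beside these letters did not share a direction: ADAM10 and ADAM19 were called lower in pika and ADAMTS3 higher. The Adamts3 letters lie inside the listed span of the mouse gene (chromosome 5, 89673841 to 89883668), so they precede a start site within that span. A match describes the mouse letters only, and pika promoter sequence was not analysed here.

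Among the ADAM genes with a metalloproteinase site, 8 of 10 were tested, 6 were called lower and none higher. Over all tested genes the shares were 23.5% lower and 28.7% higher. ADAM9, a widely expressed sheddase, had the highest FPKM of all members in both species. It stood at 159.7, 148 and 158 in the pika libraries and at 565, 541 and 577 in mouse. All pika libraries lay below all mouse libraries, with a log2 fold change of -1.85 (SE 0.04, limma-trend adjusted p = 2.9e-10), 3.62-fold lower by the means. ADAM10, the main constitutive sheddase of Notch and of the amyloid precursor protein, was at 70.7, 73.8 and 76.5 in pika against 189.7, 183 and 190.2 in mouse (log2 fold change -1.34, SE 0.05). On the deposited scale the ADAM10 values were 34.1 ± 1.39 and 35.3 ± 0.888 FPKM (SD, n = 3), and its fold change shrank to -0.05 without rescaling and to -0.10 without division by gene length, so its call rests on the scale and the gene length. ADAM9 also lost its call in these settings, at -0.55 and -0.87.

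ADAM17, also known as TACE, which releases TNF and ligands of the EGF receptor, was not called. Pika libraries held 90.1, 96.9 and 90.9, mouse libraries 53.5, 59.9 and 55.5. The groups did not overlap, and the log2 fold change of 0.71 (SE 0.06, limma-trend adjusted p = 2.9e-06) stayed under the fold minimum. Without rescaling it was 1.92 and called higher. In pika ADAM17 therefore ranked above ADAM10, and in mouse below it: the ratio of ADAM17 to ADAM10 FPKM within a library was 1.28, 1.31 and 1.19 in pika and 0.282, 0.328 and 0.292 in mouse. This ratio does not depend on the scale between libraries but does depend on the gene models, whose recovered lengths for ADAM17 were 2804 bases in pika and 7154 in mouse, and for ADAM10 5635 and 4913. By recovered reads the order did not switch: ADAM10 had 4677 against 2923 for ADAM17 in pika, and 2464 against 1066 in mouse.

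The largest differences among the membrane proteases were in ADAM8, ADAM19, ADAM15 and ADAM33. ADAM19, or meltrin beta, which cuts neuregulin precursors, was at 5.58, 8.01 and 8.22 in pika against 170.3, 171 and 163 in mouse, 23.1-fold lower by the means (log2 fold change -4.37, SE 0.13). ADAM15, a sheddase that also binds integrins, was at 8.40, 7.92 and 7.12 against 122, 116 and 122 (-3.78, SE 0.08). ADAM33, a protease of mesenchymal cells, was at 7.93, 9.28 and 9.10 against 85.9, 86.7 and 82.3 (-3.14, SE 0.09). In each of these genes the pika libraries sat well below the mouse libraries, and the calls of all 4 held on the 3 scales and without gene length.

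ADAM8, best known from leukocytes, was at 0.454, 0.359 and 0.436 in pika against 30.5, 31.8 and 36.0 in mouse (log2 fold change -4.57, SE 0.14). Mouse libraries were thus 78.8-fold higher by the means. The pika value rested on 11 reads over the 3 libraries and the mouse value on 405. ADAM8 passed the filter through mouse alone, so its call carries no weight beyond these levels. The pan-leukocyte marker PTPRC stood at 0 in all pika libraries and averaged 0.0239 FPKM in mouse. The 4 leukocyte markers had a summed FPKM of 6.53 to 7.05 in pika and 5.84 to 7.93 in mouse. Of the 3 tested, CSF1R and CD68 were called lower in pika, where 23.5% of all tested genes were. CSF1R passed the filter through mouse alone, so nothing is read from its call. CD68 stayed under the fold minimum on the deposited scale (-0.61) and for reads not divided by gene length (-0.52). CD14, at 10.8 against 8.02, was not called (log2 fold change 0.43), but was called higher in these settings (1.28 and 1.13). The part of leukocytes in the ADAM8 level was not tested.

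ADAM12, or meltrin alpha, which is prominent in growing mesenchyme, was close in both species, at 58.1, 54.8 and 55.5 in pika against 43.7, 43.0 and 41.9 in mouse. Its log2 fold change was 0.38 (SE 0.06), inside the fold minimum, and it became 1.57 without rescaling and -1.52 when reads were not divided by gene length. The recovered models of ADAM12 were the most unequal of the tested members, with 1338 bases in pika and 10573 in mouse, and no direction is given for this gene. Reads and lengths recovered from the FPKM steps can be the true ones divided by a shared whole number, which leaves FPKM unaffected but not the values without gene length. The pika length of 1338 bases may be too small in this way. The inequality of the ADAM12 models would then be smaller, and its value of -1.52 too low. ADAM28 was too low to test, at 0.843 ± 0.265 in pika against 0.563 ± 0.491 in mouse (SD, n = 3), and ADAM30 stood at 0 in all pika libraries and rested on 2 reads in mouse.

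Of the 5 ADAM genes without a metalloproteinase site 2 were tested, and ADAM23 was called higher in pika. ADAM23, a receptor for LGI proteins that is best known from neurons, stood at 42.4, 39.2 and 42.1 in pika against 8.07, 7.92 and 10.3 in mouse. The groups did not overlap, and the log2 fold change was 2.12 (SE 0.12, limma-trend adjusted p = 1.0e-07), 4.71-fold by the means. Without gene length it was 0.66 and no longer called, and the recovered models had 2922 bases in pika and 17907 in mouse. Its relative ADAM22, also an LGI receptor, was at 2.73, 3.07 and 2.08 against 3.77, 3.53 and 3.01, with overlapping groups and a log2 fold change of -0.30 (SE 0.17, limma-trend adjusted p = 0.13). The LGI genes were low in both species: LGI3 was the only tested one of 4, at 3.01 ± 0.205 and 1.18 ± 0.418 (SD, n = 3) and not called, and LGI2 was at 0.254 and 4.14.

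The remaining members without the site were near 0. ADAM11, a nervous system protein, overlapped between species, at 0.859 ± 0.226 in pika against 0.834 ± 0.289 in mouse (SD, n = 3). The sperm protein gene ADAM2 and the epididymal ADAM7 were listed at 0 in every pika library. Those zeros come from 24344084 reads, which allows up to 0.123 reads per 1000000 (3 reads, counting error only). In mouse ADAM2 had 5 reads over the 3 libraries and ADAM7 had 1.

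Of the 7 proteoglycanases of the ADAMTS family, which cut aggrecan and versican, 5 were tested, with 3 called lower, 1 higher and 1 not called. Over all tested genes the shares were 23.5% lower and 28.7% higher. ADAMTS5, the main aggrecanase of mouse cartilage, was at 7.24, 6.02 and 6.49 in pika against 508, 515 and 506 in mouse. All pika libraries lay far below all mouse libraries, 77.4-fold by the means (log2 fold change -6.08, SE 0.07, limma-trend adjusted p = 7.6e-12), and the fold change was -4.59 without rescaling and -4.82 without gene length. It was the widest gap of the 25 tested members on the log2(value + 1) scale. By the means ADAM8 (78.8-fold) and ADAMTS9 (170-fold), both near 0 in pika, had wider gaps, and without gene length ADAMTS9 stood at -4.84. The ADAMTS5 value rested on 245 recovered reads in pika and 3662 in mouse. The recovered mouse length of 2697 bases, the read number and the value without gene length may be too small by a shared whole number. ADAMTS1, a versican-cutting protease, was at 52.0, 55.8 and 49.8 in pika against 269.9, 286 and 293 in mouse (-2.41, SE 0.06), also without overlap. The mouse genes of these proteases are neighbours on chromosome 16 (GRCm38), Adamts1 from 85793827 to 85803113 and Adamts5 from 85858157 to 85901125, with no other protein-coding gene between them.

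ADAMTS4, the aggrecanase closest to ADAMTS5 in its substrates, did not follow them. It was at 22.9, 22.1 and 19.3 in pika against 26.4, 21.4 and 29.5 in mouse, and the groups overlapped (log2 fold change -0.24, SE 0.13, limma-trend adjusted p = 0.10). Without rescaling the ADAMTS4 value turned to 0.91. The ratio of ADAMTS5 to ADAMTS4 FPKM within a library was 0.316, 0.273 and 0.336 in pika and 19.3, 24.1 and 17.2 in mouse. ADAMTS4 thus stood above ADAMTS5 in every pika library and below it in every mouse library.

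ADAMTS9, which cuts versican and is needed in many tissues, was at 0, 0.0514 and 0.0938 in pika against 8.05, 8.76 and 7.87 in mouse (log2 fold change -3.14, SE 0.16). The pika value rested on 3 reads against 328 in mouse, a pooled mouse-over-pika ratio of 167 with an exact 95% counting interval from 56.6 to 813. ADAMTS8 was the proteoglycanase called higher in pika, at 2.84, 2.58 and 3.86 against 0.404, 0.628 and 0.960 (1.30, SE 0.20). It had 95 reads in pika and 8 in mouse, and its call was lost with median-of-ratios scaling (0.62). ADAMTS8 passed the filter through pika alone and ADAMTS9 through mouse alone, so their calls carry no weight beyond these levels. On the mouse genome Adamts8 lies on chromosome 9 next to Adamts15, with 20109 bases between them, and ADAMTS15 stood at 0 in all pika libraries and at 1.62, 1.82 and 1.60 in mouse, too low to test. ADAMTS20 had 3 reads in pika and 4 in mouse.

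The procollagen N-propeptidases, which trim the amino ends of fibrillar procollagens, split in 3 ways. ADAMTS2, the main enzyme for type I procollagen in skin, was at 57.3, 54.5 and 59.6 in pika against 42.7, 47.8 and 45.2 in mouse. The libraries did not overlap, but the log2 fold change of 0.33 (SE 0.07, limma-trend adjusted p = 0.0013) was inside the fold minimum. ADAMTS3, which also activates the lymphatic growth factor VEGFC together with CCBE1, was at 14.6, 15.6 and 12.1 in pika against 1.37, 0.267 and 1.02 in mouse, 15.9-fold higher by the means (3.04, SE 0.24, limma-trend adjusted p = 1.3e-06). The mouse value rested on 14 reads and the pika value on 531, and the gene was called higher on every scale and without gene length (1.94 to 3.60). ADAMTS14 went the opposite way, at 0.453, 0.159 and 0.290 in pika, from 6 reads, and 10.2, 11.7 and 7.24 in mouse (-3.03, SE 0.20). ADAMTS3 passed the filter through pika alone and ADAMTS14 through mouse alone, so their calls carry no weight beyond these levels.

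Procollagen genes themselves were called lower in 2 of 5 tested cases and higher in none, where 23.5% of all tested genes were called lower. They had a median log2 fold change of -0.95 (all tested genes, 0.21). Without rescaling 2 were called higher and 1 lower, where 58.3% and 10.7% of all tested genes were. The deposited FPKM of the 6 listed genes summed to 3477 to 3632 in pika and 1961 to 2008 in mouse. Type III collagen, COL3A1, averaged 22.9 ± 1.44 against 955 ± 16.4 for mouse (SD, n = 3; -5.32), and COL5A1 followed at -1.68, a call that ended without rescaling (-0.39). COL1A1 (chosen after its values were seen) averaged 4787 against 4811 and was not called on this scale, but was called higher without rescaling (1.29). CCBE1 was at 57.8 ± 2.22 in mouse and at 0.0714 ± 0.124 in pika (-5.78), and it passed the filter through mouse alone.

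ADAMTS7 and ADAMTS12, which cut cartilage oligomeric matrix protein (COMP), were both called lower in pika. ADAMTS12 was at 18.1, 18.3 and 16.4 in pika against 95.5, 97.3 and 97.3 in mouse (log2 fold change -2.39, SE 0.07). ADAMTS7 was at 7.07, 6.31 and 7.36 against 26.6, 28.8 and 26.3 (-1.83, SE 0.11), and its fold change of -0.55 without rescaling passed no call. Neither gene overlapped between species.

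Of the other ADAMTS genes, ADAMTS10, which acts on fibrillin microfibrils, and its relative ADAMTS6 were called lower. ADAMTS6 was at 3.40, 4.73 and 3.48 in pika against 31.7, 26.4 and 26.2 in mouse (log2 fold change -2.58, SE 0.15); its recovered mouse length of 2411 bases may likewise be too small, which leaves these values unaffected. ADAMTS10 was at 8.13, 8.49 and 9.95 against 33.2, 38.2 and 33.9 (-1.87, SE 0.11, and -0.58 without rescaling). Low members of this group were not tested: ADAMTS18 was at 1.60, 1.42 and 1.21 in pika against 0.0916, 0.142 and 0.109 in mouse, ADAMTS17 at 1.11, 1.08 and 0.902 against 0.120, 0.186 and 0.285, and ADAMTS19 at 0.398, 0.252 and 0.306 in pika and at 0 in every mouse library, where 14164317 reads allow up to 0.212 reads per 1000000. The libraries of the species did not overlap in these 3 genes, nor in ADAMTS16, where mouse was the higher species. Among all tested genes 89.0% did not overlap. That share is not given here for untested genes, so nothing is read from it. The mouse values rested on 3 reads for ADAMTS18 and 4 for ADAMTS17. The pooled pika-over-mouse ratio of ADAMTS18 was 12.8, with an exact 95% counting interval from 4.12 to 63.9. ADAMTS13, the protease of von Willebrand factor, had 17 reads in pika and 1 in mouse, and ADAMTS16 had 0 and 3.

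All 3 tested ADAMTSL genes were called lower in pika, where 23.5% of all tested genes were called lower. ADAMTSL3, also named punctin-2, was at 6.99, 6.97 and 5.99 in pika against 63.2, 69.0 and 56.9 in mouse (log2 fold change -3.06, SE 0.11). ADAMTSL4, a fibrillin-binding protein whose loss displaces the eye lens, was at 17.8, 19.4 and 20.4 against 61.5, 73.1 and 55.6 (-1.67, SE 0.11), and ADAMTSL5 at 16.7, 12.0 and 11.7 against 51.9, 50.9 and 45.7 (-1.82, SE 0.13). No pika library reached a mouse library in any of them, but the latter 2 lost their call without rescaling, at -0.38 and -0.53. ADAMTSL2 rested on 2 reads in pika and 4 in mouse. Among the 13 symbols with no pika row, ADAMTSL1 was the most abundant, at 7.34, 8.08 and 8.42 deposited FPKM in mouse, and the other 12, all ADAM genes, averaged at most 0.580.

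The make-up of each family was described within a library, as shares of summed FPKM, which do not depend on the scale between libraries but do depend on the gene model lengths. ADAM9 took 34.7 ± 1.16% of the summed ADAM FPKM in pika and 44.2 ± 0.775% in mouse (SD, n = 3). ADAM17 and ADAM23 took 20.7 ± 0.969% and 9.21 ± 0.343% in pika and 4.44 ± 0.318% and 0.689 ± 0.0953% in mouse. The ADAM23 share depends strongly on its recovered models, which had 2922 bases in pika and 17907 in mouse. ADAM23 was also not called without gene length (log2 fold change 0.66), so little is read from its share. The share of ADAM12 is not compared, because its recovered gene models are so unequal and its pika length is uncertain. ADAM19, ADAM15 and ADAM33 took 13.2 ± 0.504%, 9.48 ± 0.135% and 6.70 ± 0.273% in mouse and 1.62 ± 0.328%, 1.75 ± 0.153% and 1.96 ± 0.167% in pika. ADAM10 took a similar share in both, at 16.5 ± 0.607% and 14.8 ± 0.118%.

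ADAMTS5 took 47.5 ± 0.536% of the summed ADAMTS FPKM in mouse and 3.37 ± 0.313% in pika (SD, n = 3). ADAMTS2 took 29.2 ± 1.80% in pika and 4.21 ± 0.178% in mouse, and in pika it lay above ADAMTS1 in libraries 1 and 3 and below it in library 2 (27.5% against 28.2%). ADAMTS1, with 26.8 ± 1.18% and 26.4 ± 0.827%, and ADAMTS12, with 8.99 ± 0.369% and 9.02 ± 0.0430%, took shares that overlapped between the species. Summed over the family, rescaled FPKM was 196 ± 3.65 in pika and 1073 ± 15.1 in mouse for ADAMTS, 447 ± 3.52 and 1269 ± 19.2 for ADAM, and 39.4 ± 1.81 and 176 ± 17.7 for ADAMTSL. On the deposited scale the ADAM sum was 207 ± 1.35 and 239 ± 4.92 FPKM, the ADAMTS sum 90.6 ± 1.75 and 202 ± 4.74, and the ADAMTSL sum 18.2 ± 0.807 and 33.2 ± 3.20, so that each gap was narrower there and the mouse sums were still the higher ones.

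**Figure D3:**
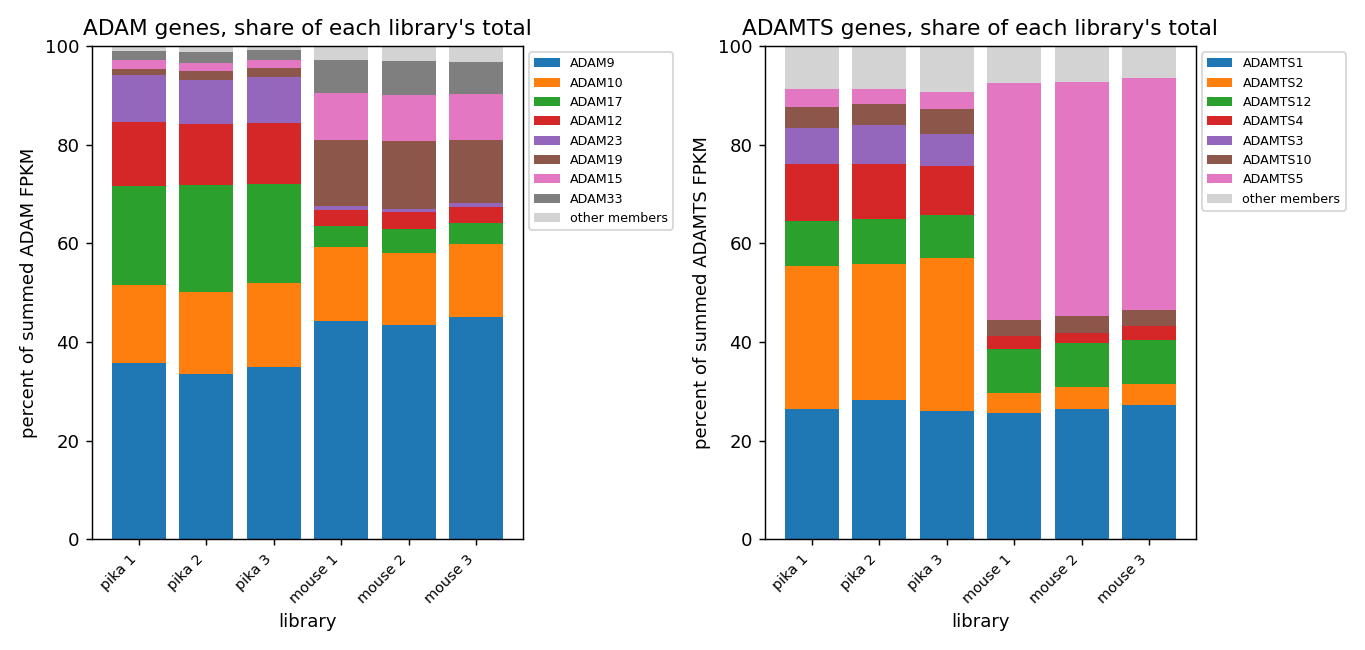
Share of each member in the summed FPKM of its family, in percent on the y axis, for each of the 6 libraries on the x axis; ADAM genes on the left and ADAMTS genes on the right, with the members not listed in light grey. ADAM17 and ADAM23 fill more of the pika bars, and ADAMTS5 takes 47.0% to 48.1% of the mouse bars and 3.04% to 3.67% of the pika bars. The ADAM12 and ADAM23 shares depend on gene models of very unequal recovered length.

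Genes that act with these proteases were taken from lists of regulators, inhibitors and substrates, and the median log2 fold change of each is to be read beside 0.21 for all tested genes. Their counts are to be read beside 28.7% of all tested genes called higher and 23.5% called lower. Without rescaling these shares were 58.3% and 10.7%. Of 11 tested regulators of ADAM10 and ADAM17, 1 was called higher, 4 lower and 6 were not called, with a median log2 fold change of -0.24. The tetraspanins that carry ADAM10 to the surface differed in direction: pika had more TSPAN15, 10.7 ± 1.25 against 1.34 ± 0.171 (SD, n = 3; log2 fold change 2.32), and TSPAN14 (-3.10) and TSPAN5 (-2.57) were lower. SH3D19, an intracellular binding partner of ADAM proteins, was also lower (-2.91). Without rescaling 5 of the regulators were called higher and 3 lower. TSPAN15 passed the filter through pika alone, so nothing is read from its call.

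Of 7 tested inhibitors and clearance receptors, 5 were called lower and 1 higher, and their median was -1.14. TIMP1 averaged 167 ± 6.02 and 1139 ± 42.8 (pika and mouse, SD, n = 3; log2 fold change -2.76), and LRP1, the receptor that takes up ADAMTS4 and ADAMTS5, averaged 393 ± 11.5 and 1161 ± 21.3 (-1.56, not called without gene length). TIMP2 (-1.20) was lower, and so was TIMP3, the TIMP that inhibits ADAM17 and the aggrecanases, named after its value was seen (-1.14). SORL1, a sorting receptor, was higher (3.07), but it passed the filter through pika alone, so nothing is read from its call. Without rescaling TIMP1 alone of the 5 lower genes was still called, and TIMP2, TIMP3 and LRP1 stood at 0.10, 0.15 and -0.27.

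Among proteins shed by ADAM10 or ADAM17, 12 of 18 tested were called lower in pika and none higher, with a median of -2.01, where 23.5% of all tested genes were called lower. Of these 12, 5 (EREG, VCAM1, NOTCH3, L1CAM and EFNA5, the latter 3 named after their values were seen) passed the filter through mouse alone, so nothing is read from the count. The prion protein gene PRNP averaged 4.86 ± 2.00 and 1062 ± 13.5 (pika and mouse, SD, n = 3; log2 fold change -7.57). EREG, an EGF receptor ligand, stood at 0 in all pika libraries and averaged 148.5 ± 4.74 in mouse. The adhesion molecule VCAM1 averaged 0.0951 ± 0.165 and 132 ± 4.11, and the TNF receptor TNFRSF1B 5.37 ± 1.15 and 275 ± 11.4. Without rescaling the counts were 4 higher and 8 lower, and without gene length 2 and 10.

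Of 7 tested pericellular substrates of ADAMTS proteases, 3 were called lower and 1 higher, and their median was -0.99. Versican (VCAN), the large hyaluronan-binding proteoglycan of skin, averaged 22.7 ± 1.49 and 279.5 ± 4.34 (pika and mouse, SD, n = 3; log2 fold change -3.57), biglycan (BGN) was also lower (-1.99), and decorin (DCN) was higher (1.22). Aggrecan (ACAN), named outside the rule as the substrate of the aggrecanases, was too low to test, at 1.71 ± 0.368 and 0.0988 ± 0.171. Of 10 microfibril genes tested, 2 were called higher and 5 lower, with a median of -0.96: LTBP2 (-3.70), EFEMP2 (-3.45) and FBN1 (-2.62) were lower and FBN2 was higher, at 67.2 ± 1.79 against 5.28 ± 1.14 (3.46). BGN lost its call without rescaling (-0.70), where 5 microfibril genes were called higher and 3 lower. FBN2 passed the filter through pika alone. CCBE1, another of the 3 lower substrates, passed it through mouse alone, so nothing is read from the calls of FBN2 and CCBE1.

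Enzymes that glycosylate or activate thrombospondin-repeat proteins were called higher in 1, lower in 2 and not in 5 of 8 tested, with a median of 0.42. POFUT2, which adds fucose to the thrombospondin repeats of ADAMTS and ADAMTSL proteins, averaged 44.8 ± 3.78 and 236 ± 16.7 (pika and mouse, SD, n = 3; log2 fold change -2.37). PCSK5, a proprotein convertase, was also lower (-3.14), and DPM1, which makes a mannose donor, was higher, at 210.1 against 20.7 by the means. Without rescaling 6 of the 8 were called higher and 2 lower. PCSK5 passed the filter through mouse alone, so nothing is read from its call. These lists were chosen with earlier results of the same libraries known, and their counts share the scale of the members.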

How the data were processed

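Each library's file held 1 FPKM value per gene, as deposited by the authors. Per the submitters' processing notes, CASAVA 1.9, STAR 2.6.1a, featureCounts, edgeR 3.28.1 and the build GRCm38 were used, listed without an order; which annotation served each species is not stated in the sources used here. Mouse identifiers were given symbols from a table (49326 of 49585), and symbols found once in each species were joined. Read numbers, model lengths and totals per library were derived from the steps of the FPKM values (tolerance 0.002 reads), and the recovered reads made up 95.7% to 96.4% of the totals. The main test, two-sided, was limma 3.58.1 with a trended prior, run in R 4.3.3 on log2 of the rescaled FPKM with 1 added, with Benjamini-Hochberg adjustment over all 10348 tested genes; the code was tested on simulated data. Shares, ratios and figures used Python 3.11.15, numpy 2.4.6, pandas 2.3.3, scipy 1.17.1 and matplotlib 3.10.9. Alternatives were a pseudocount of 0.1, no filter, a filter at 5 FPKM, no rescaling, median-of-ratios scaling, no trend, a replicate block, reads not divided by length, and each library left out. All members could be named; from each other list, up to 4 called genes with the largest fold change or, with none called, the 2 with the highest level. The members and lists were chosen with earlier results of these data known. No protein sequences were used, so the ADAM genes were split by their metalloproteinase site from textbook knowledge. Identifiers of the rat and rabbit tables were not paired with symbols in the tables used here, and these libraries were left out.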

Additional observations from a re-analysis of the deposited data

How the results depend on the processing

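Of 346 single-gene values under the alternatives, 329 kept their direction and their call, and the 150 that left out a library all did, with a shift of at most 0.26 on the log2 scale. Without rescaling, 6 members were called higher and 11 lower instead of 3 and 17, ADAM22 turned to 0.42 and ADAMTS4 to 0.91, ADAM9, ADAM10, ADAMTS7, ADAMTS10, ADAMTSL4 and ADAMTSL5 lost their call, and ADAM12, ADAM17 and ADAMTS2 were called higher. Without gene length, ADAM12 turned to -1.52 and was called lower, ADAM22 (-1.47) was called lower, and ADAM9, ADAM10 and ADAM23 lost their call. The ADAM12 value may be too low, since its recovered pika length may be too small. Median-of-ratios scaling ended the call of ADAMTS8. The cause of these shifts was not tested. With the replicate number as a block, 3 members were called higher and 17 lower, and 5405 genes in all against 5403; same-numbered pika and mouse libraries correlated at -0.0091 to 0.048 in their deviations, and 2 of the 3 pika libraries did not correlate best with their own number, so the numbers were not taken as pairs. Depth limits the called members with few reads in 1 species: ADAMTS9 (3), ADAMTS14 (6) and ADAM8 (11) in pika and ADAMTS8 (8) and ADAMTS3 (14) in mouse.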
